A study of Mus musculus with 4 samples.

Results

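Dense domains are stretches of the mouse genome in which regions bound by Insm1, Neurod1 or Foxa2 follow each other closely. All sites wider than 60 bp in the site lists of the 3 factors were merged into 38853 regions where they overlapped by 1 bp or more. Regions on a chromosome were then chained where the gap to the next was 10 kb or less, and chains of 5 or more regions were taken as dense domains. The rule gave 311 dense domains among 27822 chains, and they held 1766 of the 38853 regions, which is 4.55% of them (95% Wilson interval 4.34 to 4.76%). The domains were thus chosen by the positions and widths of the listed sites alone. The rule did not ask which factors met in a region. Overlapping sites count as 1 region, however, and sites side by side without overlap count separately. By construction, sites of different factors that lie side by side thus help a chain to reach 5 regions more than sites that overlap. The factors of a region also come from the same lists, so the values below are descriptions without a test.

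Binding was mapped by chromatin immunoprecipitation and sequencing (ChIP-seq) in a mouse pancreatic beta cell line, with 1 antibody for each factor; control IgG was the fourth sample. The line came from islets of RIP1-Tag2 mice aged 6 weeks on a mixed C57BL/6, 129/ola and CBA/J background. In these mice an insulin promoter drives a viral tumour antigen in beta cells, so the cells are tumour cells of beta cell origin. They were used at passages 10 to 15 in 25 mmol/l glucose, a condition shared by every sample. Each antibody contributed 1 list (17453 Insm1, 14607 Neurod1 and 28379 Foxa2 sites), and no list of the IgG sample was used. Whether repeats were pooled in a list is not stated, so no spread between replicates can be given. The lists hold no expression values, so the cell type rests on the labels, and they hold no read counts, so depth is unknown.

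Insm1 is a zinc finger protein found in endocrine cells and developing neurons. Neurod1 belongs to the basic helix-loop-helix family, which recognises E-box sequences, and Foxa2 is a forkhead protein known for opening compact chromatin. All of them are needed for normal beta cell development or function in mice. The series title speaks of Insm1 cooperating with both other factors. A question for dense domains is therefore whether the factors meet in the same regions of a domain or lie beside each other.

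Most dense domains had 5 regions, and nearly all of them mixed the factors. Of the 311 domains, 194 had 5 regions, 63 had 6, 32 had 7, and 22 had 8 or more, up to 15. Their length ran from 6068 to 55784 bp, with a median of 20864 bp (quartiles 16381 and 25932 bp). The regions covered a median of 5.4% of a domain, and the gap between neighbouring regions of a domain had a median of 3953 bp, beside 3762 bp in chains of 2 to 4 regions and 25761 bp over all neighbouring regions. The upper limit of 10 kb and the least number of 5 regions set these lengths and gaps in part.

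**Figure D1:**
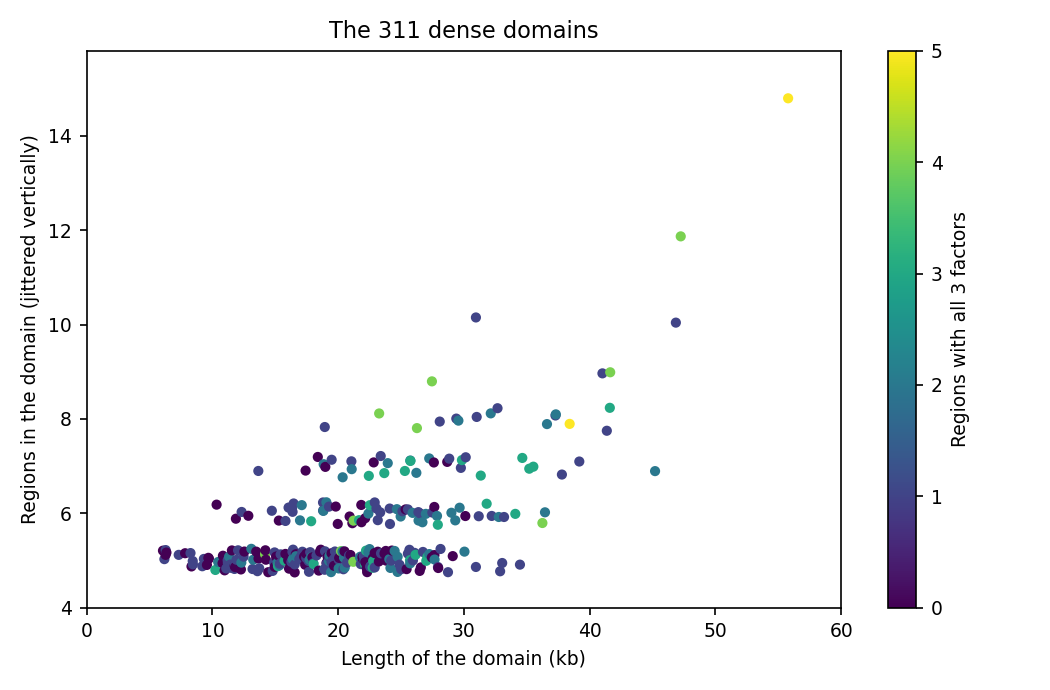
Length in kb (x axis) against the number of regions (y axis, spread vertically within each number) for the 311 dense domains, coloured by the number of regions with all 3 factors. Most domains have 5 regions, and the domain with 15 regions, at 55784 bp, stands apart at the upper right.

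Foxa2 was the factor with the most sites in most domains and was missing from none. A domain held a median of 3 Insm1 sites (0 to 7), 3 Neurod1 sites (0 to 8) and 4 Foxa2 sites (1 to 13). Foxa2 had more sites than either partner in 178 domains, Neurod1 in 38 and Insm1 in 23, and in 72 the highest number was shared. Sites of all 3 factors occurred somewhere in 294 domains, which is 94.5% (95% Wilson interval 91.4 to 96.6%). Over all regions Insm1 was present in 44.7%, Neurod1 in 36.5% and Foxa2 in 72.3%, and a domain has 5 or more regions in which each can occur. This count was not made for shorter chains, so such mixing is not shown to be particular to dense domains. Insm1 was absent from 8 domains and Neurod1 from 11, whereas 0 of 311 lacked Foxa2, which allows a share of up to 0.965% by the limit of 3 counts and 1.22% by the Wilson interval. Single regions held Foxa2 no more often in domains (69.6%) than outside (72.5%). Its presence in every domain is therefore not shown to be a trait of dense domains. The Foxa2 list is also the longest. With lists of equal length, 108 domains were found, and Neurod1 was in 68.3% of their regions, Foxa2 in 52.1% and Insm1 in 50.2%.

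All 3 factors met in 1 or more single regions in 224 domains, or 72.0% (66.8 to 76.7%). Over all regions the share with all 3 factors was 17.0%, and each domain has 5 or more regions in which they can meet. The number was not compared with shorter chains, so it is not a trait of dense domains by itself. In 123 domains there was 1 such region, in 61 there were 2, in 28 there were 3, in 10 there were 4 and in 2 there were 5. In 26 domains such regions made up 50% or more of the total. The remaining 87 domains had no region with all 3 factors, and 70 of them still held sites of each factor in separate or paired regions. In 21 domains every region held a single factor.

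Within the domains 379 of 1766 regions held all 3 factors, or 21.5% (19.6 to 23.4%), against 6230 of 37087 regions outside, or 16.8% (16.4 to 17.2%). The share over all regions was 17.0%. The difference was 4.66 percentage points (95% Newcombe interval 2.77 to 6.67 points, which treats regions as independent although regions of a domain share their surroundings). Across 8 alternative settings it lay between 2.42 and 9.44 points. The width of a region moved with this share. In the narrowest tercile of regions (61 to 168 bp) the share was 1.6% in domains and 1.73% outside, and in the widest tercile (224 to 974 bp) it was 44.1% in domains and 34.8% outside. The part of width in the difference was not tested, and merging overlapping sites widens a region by construction.

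The larger shift in make-up concerned Neurod1. It was present in 48.0% of domain regions (45.7 to 50.3%), against 36.0% of regions outside (35.5 to 36.4%), a difference of 12.1 points (9.69 to 14.4), and the share over all regions was 36.5%. The direction was the same under 8 alternative settings, where the difference ran from 9.94 to 20.6 points. Regions with Neurod1 alone made up 12.9% in domains and 7.86% outside, and regions with Neurod1 and Foxa2 but no Insm1 made up 5.95% in domains and 3.87% outside. The combination of Insm1 and Neurod1 without Foxa2 was at 7.7% in domains and 7.42% outside.

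Insm1 and Foxa2 differed less. Insm1 was in 46.3% of domain regions and 44.7% of regions outside, a difference of 1.6 points (-0.772 to 3.98), and it was in 44.7% of all regions. The sign of that difference turned with gaps of 5 kb (-1.89 points), with sites above the median score (-1.5) and with lists of equal length (-4.44). Foxa2 was in 69.6% of domain regions and 72.5% of regions outside, a difference of -2.88 points (-5.12 to -0.733), and in 72.3% of all regions. Its sign turned among sites above the median score (0.131 points) and where regions up to 500 bp apart were joined (0.599). Regions with Foxa2 alone, the commonest kind, made up 34.9% in domains and 43.6% outside, and regions with Insm1 alone 9.8% in domains and 12.2% outside.

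**Figure D2:**
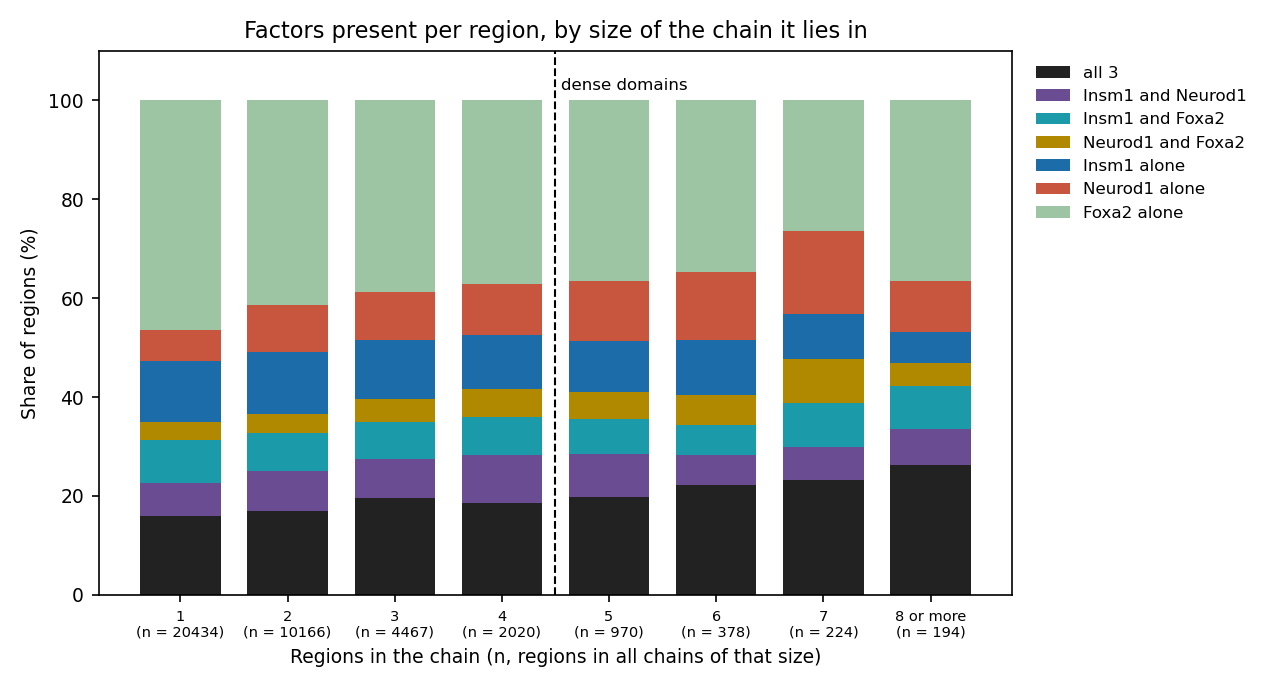
Share of regions in % (y axis) that held each combination of factors, by the number of regions in the chain (x axis), with dense domains right of the dashed line. Regions with Foxa2 alone take 46.4% of single regions, and the share with all 3 factors is 16.0% there and 26.3% in chains of 8 or more.

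These shares also moved over the chain sizes below the threshold, though not in even steps. The share of regions with all 3 factors was 16.0% for single regions, 16.9% in chains of 2, 19.7% in chains of 3, 18.6% in chains of 4, 19.8% in chains of 5, 22.2% in chains of 6, 23.2% in chains of 7 and 26.3% in chains of 8 or more (20.6 to 32.9% for this last class, with 51 of 194 regions). The interval of the last class overlaps those of chains of 5 to 7. Neurod1 was present in 32.5% of single regions, and in 38.6%, 41.9%, 44.4%, 46.1%, 48.1%, 55.8% and 48.5% of regions in the same order of chain size. Foxa2 alone ran from 46.4% of single regions to 26.3% in chains of 7 and was 36.6% in chains of 8 or more.

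At the threshold itself the members resembled the chains just below it. The 194 domains of 5 regions averaged 2.29 Insm1, 2.3 Neurod1 and 3.45 Foxa2 sites, with a median length of 18762 bp and all 3 factors in 19.8% of regions (17.4 to 22.4%). The 505 chains of 4 regions averaged 1.88, 1.77 and 2.76 sites of the same factors, with a median length of 13336 bp and all 3 factors in 18.6% of regions (16.9 to 20.3%). In 164 domains the widest gap was over 8 kb, and in 34 domains the next region outside lay at 10 to 12 kb.

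The domain with the most regions lies on chromosome 2 at 146080555 to 146136339 (mm9). It was also the longest, and it held 15 regions with 7 Insm1, 8 Neurod1 and 13 Foxa2 sites. Its first 5 regions held 1 or 2 factors each, with Foxa2 in every one. All 3 factors met in 5 regions, at 24.0, 33.0, 36.3, 52.4 and 55.7 kb from the start. The authors' site scores have no stated definition, so a site is given by the rank of its score in its own list, where 1 is the highest, or by its percentile, where 100 is the highest.

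The strongest Insm1 and Neurod1 sites of this domain shared its last region, at 146136073 to 146136339. There Insm1 ranked 115 of 17453 and Neurod1 ranked 210 of 14607, while Foxa2 ranked 8988 of 28379. Its strongest Foxa2 site, with rank 458, lay in another region of all 3 factors, at 146104420 to 146104643, where Insm1 ranked 4199 and Neurod1 ranked 3409. Between them, at 146121529 to 146121770, a region with Insm1 and Foxa2 (ranks 4722 and 887) lay 113 bp from a region with Neurod1 alone (rank 1268).

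The domain with the next most regions lies on chromosome 9 at 67604538 to 67651782 and held 12 regions, 4 of them with all 3 factors. Here the strongest site of each factor fell in a single region, at 67613770 to 67614051, with rank 530 for Insm1, 463 for Neurod1 and 546 for Foxa2. The other regions with all 3 factors were weaker, with Insm1 ranks of 2020, 4542 and 5159. The remaining 8 regions comprised 4 with Foxa2 alone, 1 with Insm1 alone, 1 with Insm1 and Neurod1 and 2 with Neurod1 and Foxa2.

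**Figure D3:**
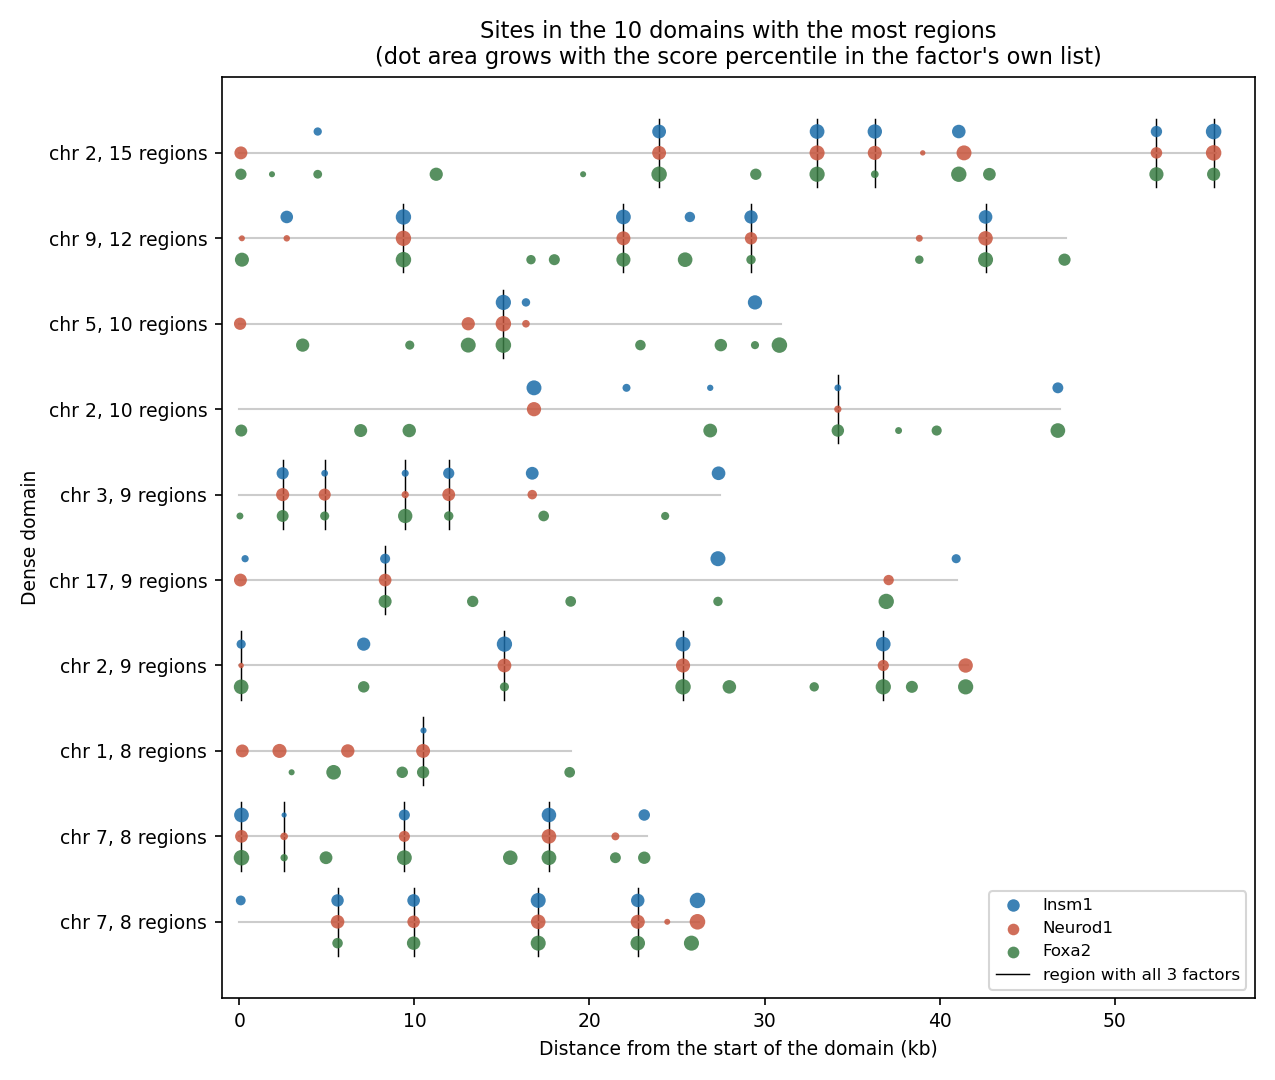
Sites of the 10 domains with the most regions, as distance in kb from the start of each domain (x axis), with 1 row per domain and Insm1, Neurod1 and Foxa2 from top to bottom in each row. Dot area grows with the score percentile in the factor's own list, and black lines mark regions with all 3 factors, of which the domains of 10 regions on chromosomes 5 and 2 have 1 each.

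Domains with similar numbers of regions differed in how many held all 3 factors. The domain of chromosome 5 at 14514780 to 14545736 held 10 regions with 8 Foxa2 sites, 4 Neurod1 sites and 3 Insm1 sites, and only 1 region had all 3, at 14529754 to 14529965. That region was strong in every list, with rank 848 for Insm1, 208 for Neurod1 and 160 for Foxa2. The domain of chromosome 2 at 161740992 to 161787849 also had 10 regions with 1 of all 3 factors. There the Insm1 and Neurod1 sites of the shared region ranked low, at 15777 and 12612, and the Foxa2 site ranked 11310, above the median of its list. A single factor was found in 7 of 9 regions of the domain at 14302346 to 14343363 of chromosome 17, and in 7 of 8 regions at 135957628 to 135976564 of chromosome 1.

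Other domains were rich in regions with all 3 factors. On chromosome 2 at 147787449 to 147825860, 5 of 8 regions held all 3, a share of 62.5%, the highest among the 22 domains of 8 or more regions. Its strongest Insm1 and Neurod1 sites (ranks 518 and 189) shared a region at 147818754 to 147818961, and its strongest Foxa2 site (rank 1521) opened the domain. In the 8-region domains of chromosome 7 at 86445861 to 86469122 and at 30768699 to 30794964 the share was 50%, and in the 9-region domains of chromosome 3 at 96356909 to 96384367 and chromosome 2 at 173886621 to 173928256 it was 44.4%. The chromosome 3 domain had no site in the highest decile of its list, with a best percentile of 74.1 for Insm1, 67.2 for Neurod1 and 83.2 for Foxa2.

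Among domains of 5 regions, 4 of 5 held all 3 factors in 3 domains, which lie at 179064832 to 179079019 of chromosome 2, 129348605 to 129368827 of chromosome 8 and 59484381 to 59505586 of chromosome 10. In the first of these the region at 179071003 to 179071140 ranked 147 for Insm1, 49 for Neurod1 and 418 for Foxa2. In the chromosome 8 domain the highest Neurod1 rank was 81, at 129348605 to 129348821, beside an Insm1 rank of 1625 and a Foxa2 rank of 2111. In the chromosome 10 domain the highest Neurod1 rank, 250, and the highest Foxa2 rank, 522, fell in the last region.

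The highest Insm1 and Neurod1 scores found in any dense domain came from the same region, the last of 6 on chromosome 4 at 149494381 to 149513445. At 149513243 to 149513445 Insm1 ranked 12, Neurod1 ranked 6 and Foxa2 ranked 63. This domain was led by Insm1, which was present in all 6 of its regions, with 4 Neurod1 and 3 Foxa2 sites. Insm1 was in every region of 2 domains, Neurod1 in every region of 9 and Foxa2 in every region of 54. Over all regions these factors were present in 44.7%, 36.5% and 72.3%.

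The highest Foxa2 score in a dense domain, rank 19, came from a region with Foxa2 alone on chromosome 13 at 116136512 to 116136731. The neighbouring region, 201 bp away at 116136932 to 116137192, held Insm1 at rank 20 and Neurod1 at rank 17 without Foxa2. Thus sites near the top of all 3 lists lay side by side without overlapping, and the rule for shared regions counts neither as a region of all 3 factors. A similar pair ended the chromosome 7 domain at 30768699 to 30794964, where a Foxa2 site of rank 2071 lay 144 bp from a region with Insm1 at rank 314 and Neurod1 at rank 28.

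Such pairs were a minority of neighbours. Of the 1455 pairs of neighbouring regions within domains, 128 (8.8%) lay at most 500 bp apart, and in 127 of these the regions had no factor in common. In 52 of the 128, or 40.6%, neither region held all 3 factors but the pair did. In chains of 2 to 4 regions 11.2% of 9576 pairs were as close, 1067 of these 1075 close pairs had no factor in common and 37.5% held all 3 factors only together. Sites of 1 factor this close to each other may have been listed as 1 site, which was not tested. With such regions joined, a setting chosen after seeing the data, 246 domains were found, and the share with all 3 factors was 25.1%. Joining applies to regions outside as well. The excess over regions outside was then 6.51 points, beside 4.66 points without joining.

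The 5 domains with the most regions per kb were 6068 to 6344 bp long, with 7.88 to 8.24 regions per 10 kb beside a median of 2.64, and 3 to 5 of the 5 regions in each held a single factor. Over all domains such regions made up 57.6%, against 63.7% of the regions outside. In 2 of these 5 domains, at 129114151 to 129120219 of chromosome 8 and 96707610 to 96713887 of chromosome 16, all 5 did, with 2 Insm1, 2 Neurod1 and 1 Foxa2 sites each. In the chromosome 16 domain, gaps of 49 and 46 bp separated Insm1 sites (ranks 1429 and 4722) from Neurod1 sites (ranks 1847 and 11236). The others, at 67331062 to 67337243 of chromosome 10, 25579876 to 25586159 of chromosome 17 and 140900550 to 140906894 of chromosome 7, held 1, 1 and 0 regions with all 3 factors.

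Among the 5 longest domains, that of chromosome 1 at 66253570 to 66298772 spread 7 regions over 45202 bp, with gaps of 6409 to 8816 bp. Foxa2 was in all 7 of its regions and all 3 factors met in 2. The domains named next were chosen after their values were seen. Foxa2 was the only factor in 2 domains, at 99677184 to 99696345 of chromosome 15 and 8949098 to 8978211 of chromosome 3, and its best percentile there was 57.7 and 66.0. On chromosome 11, Insm1 held all 5 regions of the domain at 48630594 to 48651575, and Neurod1 held all 5 of the domain at 100249400 to 100275885, each with 1 site of both other factors.

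Sites in dense domains had somewhat higher scores than the other sites of their list. The median percentile was 55.6 inside and 49.6 outside for Insm1, 58.5 inside and 50.7 outside for Neurod1, and 56.8 inside and 50.0 outside for Foxa2. Shorter chains showed part of this rise, so it is not particular to dense domains. For Insm1, Neurod1 and Foxa2 the medians per region were 47.5, 48.4 and 48.0 in single regions. They were 55.0, 53.8 and 53.5 in chains of 3, and 52.9, 52.9 and 55.7 in chains of 4. The highest decile of each list supplied 14.1% of Insm1, 14.3% of Neurod1 and 14.3% of Foxa2 sites inside, against 9.78%, 9.97% and 9.72% of the sites outside. Weak sites were frequent all the same, and the lower quartile inside was at percentile 27.0 for Insm1, 32.9 for Neurod1 and 28.8 for Foxa2. The scores come from the same lists as the positions, and whether they set which sites were listed is unknown, so these differences carry no test.

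**Figure D4:**
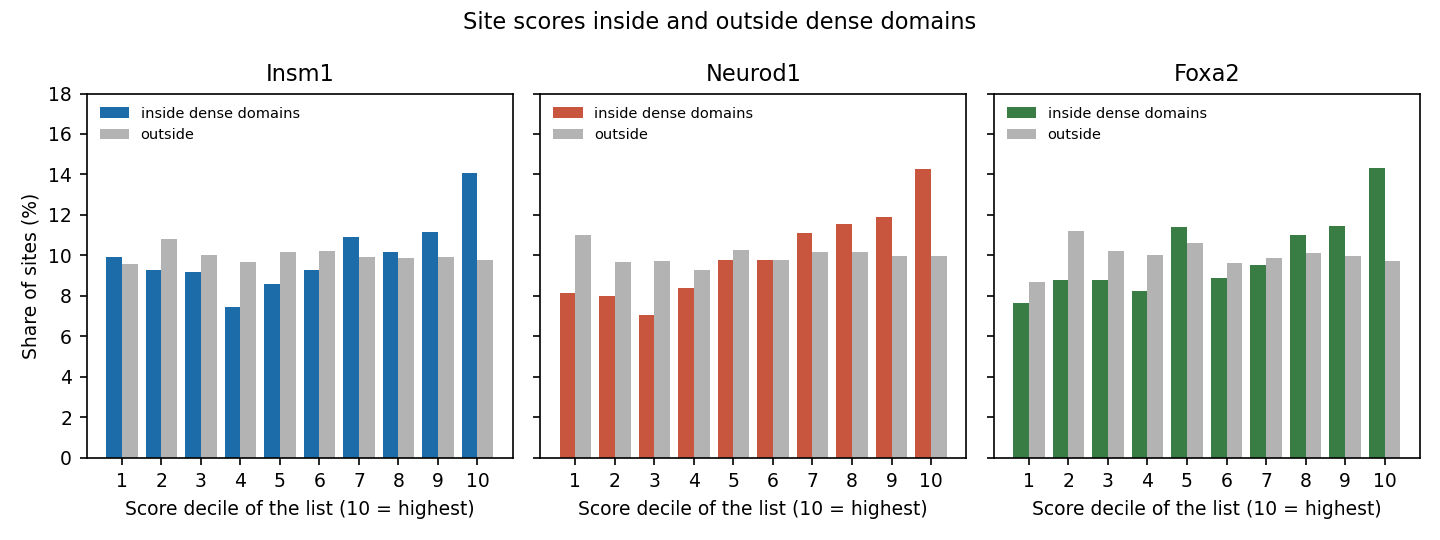
Share of sites in % (y axis) in each decile of the score of their own list (x axis, 10 is the highest), for Insm1, Neurod1 and Foxa2, with sites inside dense domains in colour at the left and sites outside in grey at the right of each pair. The highest decile holds 14.1 to 14.3% of the sites inside and 9.72 to 9.97% of the sites outside.

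Regions with all 3 factors had the highest median percentiles in the domains, at 71.8 for Insm1, 72.7 for Neurod1 and 80.2 for Foxa2, beside 70.3, 64.6 and 78.6 for such regions outside. Neurod1 had higher medians in the domains in each of its classes. They were 42.0 inside and 33.3 outside where it was alone, 44.6 inside and 33.3 outside with Foxa2, and 56.6 inside and 45.9 outside with Insm1. For Insm1 with Foxa2 the order was the other way, with an Insm1 median of 29.0 inside and 36.7 outside and a Foxa2 median of 57.7 inside and 63.9 outside.

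Seen from the sites, both partners were found at 46.4% of 817 Insm1 sites inside (43.0 to 49.8%), against 37.6% outside, and at 30.8% of 1229 Foxa2 sites inside (28.3 to 33.5%), against 23.2% outside. At Neurod1 sites the order was the other way, with both partners at 44.7% of 848 sites inside (41.4 to 48.1%), against 46.7% outside. With the sites outside weighted to the score deciles of those inside, a comparison chosen after seeing the data, the shares outside were 40.4% for Insm1, 26.5% for Foxa2 and 50.1% for Neurod1. The domains held 4.7% of Insm1 sites wider than 60 bp (4.4 to 5.02%), 5.98% of Neurod1 sites (5.6 to 6.38%) and 4.37% of Foxa2 sites (4.14 to 4.62%).

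The strongest site of a factor in a domain lay in a region of all 3 factors in over 50% of domains. The share was 56.4% of 303 strongest Insm1 sites, 55.0% of 300 strongest Neurod1 sites and 51.4% of 311 strongest Foxa2 sites, beside 40.5%, 39.1% and 23.9% of the other sites of these factors in domains. Outside domains, too, regions of all 3 factors had the highest median percentiles, at 70.3 for Insm1, 64.6 for Neurod1 and 78.6 for Foxa2. No such count is given for shorter chains, so these shares are not shown to be particular to dense domains. In 83 of the 294 domains with every factor, the strongest site of each lay in the same region (28.2%), and in 85 they lay in 3 different regions (28.9%). The strongest Insm1 and Neurod1 sites shared a region in 152 domains (51.7%), Neurod1 and Foxa2 in 116 (39.5%) and Insm1 and Foxa2 in 107 (36.4%). Foxa2 had a median of 4 sites per domain, beside 3 for each partner, which leaves more places for its strongest site. The part of this in the lower shares with Foxa2 was not tested.

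Interior regions held all 3 factors in 22.6% of 1144 cases (20.2 to 25.1%), and the first or last regions of domains in 19.5% of 622 (16.5 to 22.7%), with overlapping intervals. Of the 1455 neighbouring pairs, both regions held all 3 factors in 79 (5.43%), 1 did in 479 (32.9%) and neither did in 897 (61.6%). In chains of 2 to 4 regions these shares were 4.06%, 27.5% and 68.4% of 9576 pairs. Both regions were of the same class in 20.6% of pairs, beside 23.4% in chains of 2 to 4 regions. Within regions of all 3 factors the median distance between summits was 32 bp inside and 30 bp outside for Insm1 and Neurod1, 41 bp inside and 39 bp outside for Insm1 and Foxa2, and 39 bp inside and 42 bp outside for Neurod1 and Foxa2. The quartiles of these distances overlapped widely, at 14 to 59 bp inside and 13 to 61 bp outside for Insm1 and Neurod1.

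Across the 311 domains, the shares of regions with Insm1 and with Neurod1 had a Spearman correlation of 0.40, and those with Foxa2 had -0.21 with Insm1 and -0.23 with Neurod1. These are descriptions over domains whose shares come from the same few regions, and every region without Insm1 and Neurod1 must hold Foxa2.

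Dense domains occurred on all 19 autosomes and on the X chromosome. Chromosome 2 had the most, with 32 of the 311, and 6.34% of its regions lay in domains, the highest share of any chromosome. The lowest autosomal share was 2.91% on chromosome 13, with 8 domains. The X chromosome had 1 domain, at 11128395 to 11162853, with 5 of its 712 regions (0.702%), and all 3 factors met in 1 of these 5. Regions on the X chromosome were also sparser, with a median gap of 63678 bp, beside 21984 to 30854 bp on the autosomes. The share of regions with all 3 factors was higher inside than outside domains on 16 of the 19 autosomes.

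**Figure D5:**
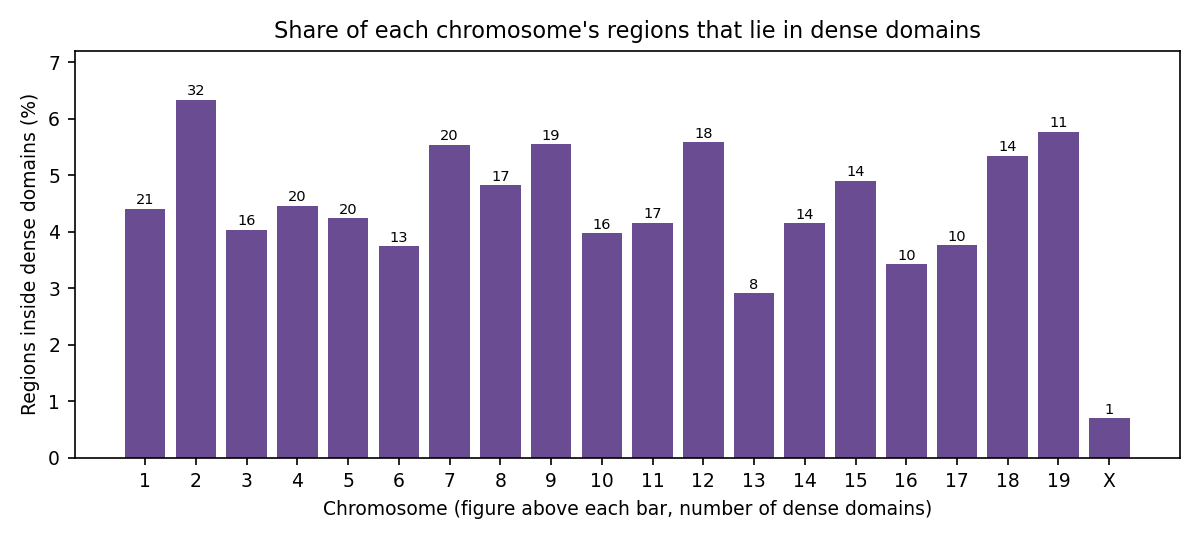
Share in % of the regions of each chromosome that lie in dense domains (y axis), by chromosome (x axis), with the number of domains above each bar. Chromosome 2 reaches 6.34% with 32 domains, and the X chromosome has 0.702% with 1.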

How the data were processed

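The labels place 4 samples in 4 groups of 1 (Insm1, Neurod1, Foxa2 and IgG), and a site list was used for the first 3. The design text speaks of 6 samples, including repeats, and does not say whether repeats were pooled. Per the submitters' processing notes, the tools were CASAVA, Bowtie 0.12.7 and MACS 1.4 and the genome build was mm9, with no settings, control or threshold in the labels. Each line of a deposited list holds a chromosome, start, end, an inner position read as the summit, and a whole number. That deposited number is called the score here. What the authors defined it as is unknown, so it enters as a rank or percentile over all deposited sites of its own list. Coordinates are as deposited.

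Sites wider than 60 bp were merged where they overlapped by at least 1 bp, regions at most 10 kb apart were chained, and chains of 5 or more regions are the dense domains. Merging and chaining were tested on simulated lists with known domains and found the planted numbers. On the site lists themselves they gave the same numbers of regions and domains as bedtools. Shares carry 95% Wilson intervals and differences 95% Newcombe intervals. They cover counting error only and treat regions or domains as independent. No test was made, since there is no replicate list and the lists that chose the domains supply every value.

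Domains are named by this rule: the 10 with the most regions, the 5 longest, the 5 with the most regions per kb, the 5 with the most regions of all 3 factors, the 5 with the highest share of such regions among domains of 8 or more, and the domain with the highest score of each list. Ties in the number of regions or of regions with all 3 factors went to the shorter domain, so domains tied with the last named ones are left out. The members, this rule and the alternatives were chosen with earlier results of these data known. Domains were not placed in genes and no sequence or motif was read, since coordinates of another build cannot be mixed with mm9. The planned parts on genes and motifs were therefore not run. Alternatives were gaps of 5 and 20 kb, 4 regions, narrow sites kept, a stricter overlap, sites above the median score, lists of equal length, each list left out and terciles of width; joining regions up to 500 bp apart and weighting by score decile were added after seeing the data. Python 3.11.15, numpy 2.4.6, pandas 2.3.3, scipy 1.17.1, statsmodels 0.14.6 and matplotlib 3.10.9 were used.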

Additional observations from a re-analysis of the deposited data

Results flagged for a closer look

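Sites of at most 60 bp were left out of the domains, and some of them fell within domain spans. There were 9 such Neurod1 sites of 424 (2.12%), 4 of which overlapped a domain region. There were 6 such Foxa2 sites of 271 (2.21%), 1 of which overlapped a domain region. None of the 71 narrow Insm1 sites fell in a domain. Both shares were lower than those of wider sites of the same lists in domains, which were 5.98% for Neurod1 and 4.37% for Foxa2. Wider sites defined the domains and narrow sites did not, so the rule itself favours a higher share of wider sites. No conclusion about narrow sites is therefore drawn from this comparison. With narrow sites kept, 323 domains were found.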

How the results depend on the processing

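The number of domains follows the rule that defines them. The excess of regions with all 3 factors kept its sign in 8 of 8 alternative settings of the rule or the lists, which all reuse the same sites. Joining close regions, which is among these 8, was added after seeing the data. Terciles of width are not among them. There the difference was -0.133 points in the narrow tercile, the opposite sign, 3.5 in the middle and 9.36 in the wide tercile. The 311 domains became 51 with gaps of 5 kb, 1076 with gaps of 20 kb, 816 with 4 or more regions, 45 among sites above the median score, 108 with lists of equal length, and 192 or 71 with the Neurod1 or Foxa2 list left out. With the Insm1 list left out there were 217. The share of regions in domains, 4.55%, was 0.703% with gaps of 5 kb, 17.7% with 20 kb, 9.74% with 4 or more regions, 4.88% with a stricter overlap, 1.27% among sites above the median score, 2.27% with lists of equal length, 3.61%, 3.0% and 1.76% without the Insm1, Neurod1 or Foxa2 list, and 3.68% with regions up to 500 bp apart joined. A shorter gap limit splits chains, and shorter or fewer lists leave fewer sites, by construction.

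The share of domain regions with all 3 factors, 21.5%, was 19.4% with gaps of 5 kb, 24.3% among sites above the median score and 25.1% with close regions joined, and 1.6%, 17.6% and 44.1% in the narrow, middle and wide terciles of width. Its excess over regions outside, 4.66 points, was 2.42 with gaps of 5 kb, 9.44 among sites above the median score and 6.51 with close regions joined. The cause was not tested. With a list left out no region can hold all 3 factors, so these settings give no such share. At equal score deciles the excess of Foxa2 sites with both partners was 4.31 points, beside 7.66 as counted. For Insm1 sites it was 5.96 points, beside 8.78 as counted. For Neurod1 sites the difference was negative, at -5.41 points, beside -2.03 as counted. No paired analysis was possible because each factor has 1 list. The unknown read depth and the unknown threshold of each list limit what sparse stretches can show.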
